A study of Mus musculus with 12 samples.

Results

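Spon2, Megf6 and Prss35 encode secreted proteins, and their RNAs rose steeply in fibroblasts treated with adenine, with S-adenosylmethionine (SAM) or with deazaneplanocin A (DZ). The 3 genes were chosen by their measured values, out of 12591 genes in the same 12 libraries, for a rise in each of the 3 treatments that was smallest with DZ. Their differences from the control and the lower place of DZ are therefore descriptions here, given without a test. The order of SAM and adenine was not a criterion of that choice, and their comparison at the same concentration was tested. The choice did use the rises with adenine and with SAM, however. It was already known when these genes were picked that Spon2 topped the adenine comparison and Prss35 the SAM comparison. That favours a lower Spon2 and a higher Prss35 with SAM, so that their p-values below are not independent of the choice. The cells were C57 PER2::LUC embryonic fibroblasts from the mouse, in which luciferase is fused to the endogenous clock protein PER2, and the study describes them as coming from heterozygous knock-in animals. Confluent dishes received fresh medium for 24 h, as a control (CTL) or with 10 µM DZ, 1 mM adenine or 1 mM SAM, and the medium of all dishes, those of CTL among them, held 3.3 mM HCl. In each of the 4 groups the polyadenylated RNA of 3 dishes was sequenced. No source used here states that the dishes of a group came from separate preparations of cells, so that the errors below measure the spread between dishes.

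SAM donates methyl groups to methyltransferases and leaves them as S-adenosylhomocysteine, which blocks these enzymes until AHCY, the enzyme that DZ inhibits, breaks it down. Adenine is a purine base that cells also make when they use SAM for polyamine synthesis and recover the methionine part. Spon2, also called mindin, belongs to the F-spondin family of matrix proteins, which carry a thrombospondin type repeat, and it is known as a ligand of integrins and as a protein that marks bacteria for uptake by macrophages. Megf6 is a large protein built mostly of EGF-like repeats, a fold common in proteins of the extracellular matrix, and little is known of what it does. Prss35 is a secreted protein of the trypsin-like serine protease family, described mainly in the ovary, and its closest relative is Prss23.

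The genes lie on different chromosomes. In the GENCODE vM39 annotation of GRCm39, Spon2 (ENSMUSG00000037379) spans 24.3 kb on the reverse strand at chr5:33353751-33378075, and its canonical transcript has 6 exons and 2454 bases. Megf6 (ENSMUSG00000057751) spans 106 kb on the forward strand at chr4:154255166-154360718, with 37 exons and 7420 bases. Prss35 (ENSMUSG00000033491) spans 23.6 kb on the forward strand at chr9:86617045-86640606, with 2 exons and 3966 bases. No other annotated gene overlaps Spon2 or Prss35, and the only gene inside Megf6, the processed pseudogene Gm13132 on the same strand, was not among the genes measured.

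The promoters of the members found in the RefSeq promoter table (build GRCm38.p6), Megf6 and Prss35, are shown as a description. These genes were picked for moving together across the treatments, and a shared regulation was not tested. Each line gives the 250 bases before the start of the gene, 5′ to 3′ on the strand of the gene, with matches to the searched motifs in capitals. The Megf6 sequence lies at chr4:154170463-154170712 and that of Prss35 at chr9:86743383-86743632, both on the forward strand.
Megf6: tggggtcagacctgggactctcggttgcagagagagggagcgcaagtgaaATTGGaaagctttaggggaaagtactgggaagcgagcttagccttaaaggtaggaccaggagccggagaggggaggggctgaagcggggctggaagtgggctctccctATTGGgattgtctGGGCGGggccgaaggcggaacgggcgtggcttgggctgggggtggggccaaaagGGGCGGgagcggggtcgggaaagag
Prss35: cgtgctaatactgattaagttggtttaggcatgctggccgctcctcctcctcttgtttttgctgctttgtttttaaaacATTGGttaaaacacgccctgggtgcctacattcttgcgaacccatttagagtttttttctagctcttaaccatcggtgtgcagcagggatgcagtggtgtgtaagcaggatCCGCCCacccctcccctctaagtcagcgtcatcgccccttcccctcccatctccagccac

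In windows of 300 bases, which also take in the first 50 bases of the gene, both strands were searched for the E-box CACGTG, the TATA box TATAAA, the CCAAT box CCAAT, the GC box GGGCGG, the cAMP response core TGACGT and the AP-1 motif TGANTCA. Both promoters held CCAAT boxes, all in the reverse orientation, at -200 and -92 from the start in Megf6 and at -171 in Prss35. Both also held GC boxes, at -79, -25 and 32 in Megf6 and, in the reverse orientation, at -60 in Prss35. Megf6 had in addition a TGACGT at 41, inside the gene and so beyond the printed part. Neither window held the E-box, TATA box or AP-1 letters, which says only that these letters are not there. Among all 32851 promoters of the table, 37.4% held a CCAAT box and 35.7% a GC box, so that matches of this kind are frequent. The E-box letters occurred in 7.15% of all promoters, the TATA box in 13.6%, TGACGT in 7.51% and TGANTCA in 7.81%. The base composition of the promoters differed, with 67.0% G and C and 20 CpG in Megf6 and 54.0% and 12 CpG in Prss35, against medians of 52.7% and 7 CpG over the table.

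The deposited values are log2 CPM, the counts of a gene relative to its library's size, with sizes scaled by the authors. Whole reads could be recovered from them, and each library held between 45649534 and 56789090 reads in these genes. Of 10 fibroblast markers 8 were among the genes measured, although Dcn and Lum were not, and the table holds only genes with at least 1 CPM in every library. Summed, the markers were at 13.28 to 13.33 log2 CPM in CTL, 13.58 to 13.70 in DZ, 13.95 to 14.12 in adenine and 13.63 to 13.71 in SAM. This sum too was higher in every treated dish than in every CTL dish. Col1a1 and Col1a2, the most abundant of the markers, weigh most in it, and single markers differed. With DZ, Vim was 0.39 below CTL on the log2 scale and S100a4 differed by -0.045, whereas the others were higher. With adenine, Vim differed by 0.027. None of 6 epithelial and 6 endothelial markers was listed, and of 8 leukocyte markers Cd68, a lysosomal protein also made outside leukocytes, alone was. It was at 1.58 to 1.99 log2 CPM in CTL, 1.43 to 1.91 in DZ, 3.43 to 3.62 in adenine and 3.96 to 4.14 in SAM. The part of either marker list in the levels of Spon2, Megf6 and Prss35 was not tested. Because whole dishes were sequenced, fewer cells of a type and less RNA per cell cannot be told apart.

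Spon2, the integrin ligand, was at 2.06, 1.97 and 1.84 log2 CPM in the 3 CTL dishes and at 3.40, 3.43 and 3.23 in the DZ dishes. It was at 5.57, 5.41 and 5.50 in the adenine dishes and at 5.17, 5.15 and 5.32 in the SAM dishes. The 4 groups did not overlap, with CTL lowest, then DZ, then SAM, and adenine highest. The low place of CTL and DZ is what the genes were picked for. The share of all genes whose groups separate in this way is not given here, so that nothing is read from it. The means were 1.96 ± 0.11 in CTL, 3.35 ± 0.11 in DZ, 5.49 ± 0.079 in adenine and 5.21 ± 0.092 in SAM (SD, n = 3). Behind them stood 162 to 185 reads per dish in CTL and 2235 to 2573 in adenine. In CPM, the mean of 3.85 in CTL became 10.2 in DZ, 45.0 in adenine and 37.1 in SAM, which are 2.65, 11.7 and 9.62 times the CTL mean. With DZ the log2 difference from CTL was 1.40, with adenine 3.53 and with SAM 3.25 (standard error 0.076 for each). Ordered from the highest among all 12591 genes, these were the 79th, the 1st and the 9th difference of their comparisons.

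Megf6, the EGF repeat protein, was at 2.92, 2.78 and 2.89 log2 CPM in CTL and at 3.85, 4.05 and 3.97 in DZ. It was at 6.26, 6.19 and 5.95 in adenine and at 5.97, 5.95 and 5.86 in SAM. CTL and DZ each stood apart from all other groups, as the choice of the genes favours. Adenine and SAM overlapped, since the third adenine dish lay below the highest SAM dish. The means were 2.86 ± 0.076 in CTL, 3.96 ± 0.10 in DZ, 6.13 ± 0.16 in adenine and 5.93 ± 0.059 in SAM (SD, n = 3), so that adenine had the widest spread. The third adenine dish held 3054 reads of Megf6, against 4156 and 4057 in the other two. In CPM, the mean of 7.24 in CTL became 15.5 in DZ, 70.4 in adenine and 60.9 in SAM, or 2.14, 9.71 and 8.41 times the CTL mean. With DZ the log2 difference from CTL was 1.09, with adenine 3.27 and with SAM 3.07 (standard error 0.075 for each), in place 133 of the DZ comparison, 3 of adenine and 17 of SAM.

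Prss35, the protease family member, was the scarcest of the 3 in CTL, at 1.59, 1.24 and 1.21 log2 CPM, and was at 2.99, 2.67 and 2.87 in DZ. It was at 4.45, 4.57 and 4.55 in adenine and at 5.05, 5.02 and 5.10 in SAM. Again the 4 groups did not overlap, with the same limits as for Spon2, but here SAM was the highest and adenine stood between DZ and SAM. The means were 1.35 ± 0.21 in CTL, 2.84 ± 0.16 in DZ, 4.53 ± 0.065 in adenine and 5.06 ± 0.042 in SAM (SD, n = 3). The spread narrowed as the level rose, and so did the spread that counting alone would give, which was 0.134 in CTL, with 104 to 131 reads per dish, and 0.0336 in SAM, with 1717 to 1974. This counting spread takes the reads as independent counts. They are estimates made from coverage, so that it may be too small. In CPM, the mean of 2.52 in CTL became 7.17 in DZ, 23.0 in adenine and 33.3 in SAM, or 2.84, 9.14 and 13.2 times the CTL mean. With DZ the log2 difference from CTL was 1.50, with adenine 3.18 and with SAM 3.71 (standard error 0.099 for each), in place 64 of the DZ comparison, 5 of adenine and 1 of SAM.

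**Figure D1:**
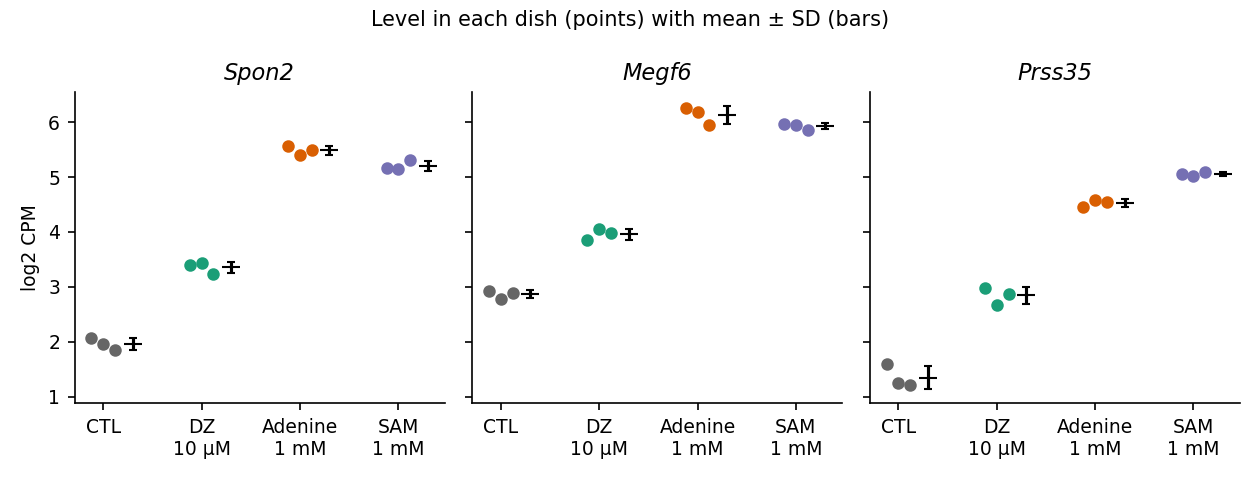
Level of Spon2, Megf6 and Prss35 (log2 CPM) in each dish of CTL, DZ, adenine and SAM, as points, with the mean and SD of the 3 dishes beside them. CTL is lowest and DZ next in all 3 genes; adenine tops Spon2 (mean 5.49) and Megf6 (6.13), and SAM tops Prss35 (5.06).

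All 3 treatments were compared with the same 3 CTL dishes, so that their differences share the values of those dishes. To place the genes among the others, 22.6% of the 12591 genes were higher with DZ, 30.6% with adenine and 33.7% with SAM at a false discovery rate (FDR) under 0.01 in limma, whereas a log2 difference of at least 1 was found in 1.21%, 5.87% and 7.51% of the genes. Scaling by plain read totals, an alternative added once the data had been seen, shifted the median log2 difference over all genes from -0.015 to 0.11 in the SAM comparison, and the share of called genes that were higher moved from 48.5% to 61.2% for SAM and from 48.6% to 63.2% for SAM against adenine. Higher in all 3 treatments in limma were 1152 genes (9.15%), and in 819 of these (6.50%) the DZ difference was the smallest. A log2 difference of at least 1 in each treatment with DZ smallest was found in 35 genes (0.278%), all of them protein coding. Ordered by the sum of the 3 differences, Prss35 was the 1st of the 35, Spon2 the 2nd and Megf6 the 7th. Since this pattern is what the genes were picked for, nothing is read from their place in it.

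The choice of the members favoured a small DZ difference beside large ones with adenine and SAM, and the shares that follow describe it. The DZ difference of Spon2 was 39.5% of that with adenine and 42.9% of that with SAM on the log2 scale. For Megf6 it was 33.5% and 35.7%, and for Prss35 47.1% and 40.4%. The medians over the 35 genes were 65.2% and 64.0%. In CPM gained over CTL, DZ gave 15.4% of the gain with adenine in Spon2, 13.1% in Megf6 and 22.7% in Prss35, and between 15.1% and 19.1% of the gain with SAM. The DZ dose was 10 µM against 1 mM for the others, and no other dose of any compound was sequenced in the libraries used here.

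**Figure D2:**
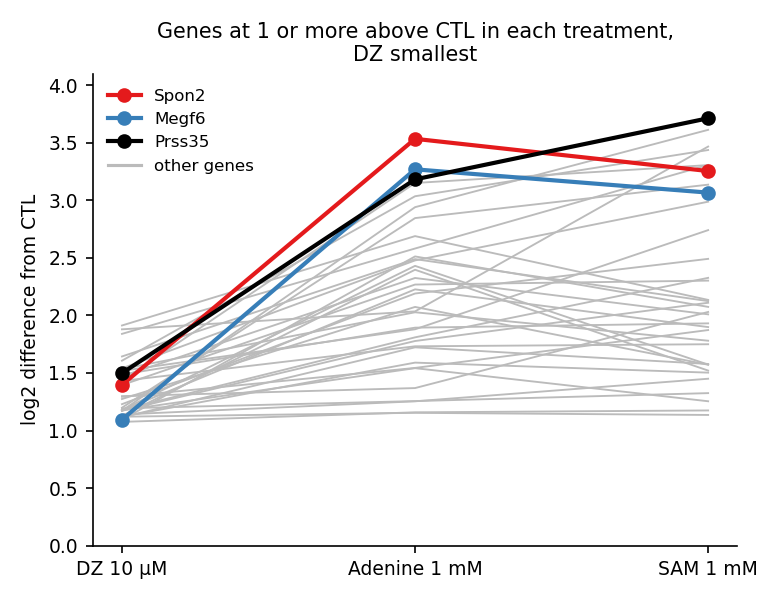
Log2 difference from CTL with DZ, adenine and SAM for the 35 genes with a difference of at least 1 in each treatment and DZ smallest, 1 line per gene. Spon2 and Megf6 peak with adenine (3.53 and 3.27) and Prss35 climbs on to SAM (3.71), while many of the other lines are flatter.

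Adenine and SAM were given at the same concentration, so the genes can be compared between them directly. The rises with both compounds went into the choice of the genes. That choice favours the directions found for Prss35 and Spon2, and the p-values carry this limit. Prss35 was higher with SAM than with adenine, by 0.53 on the log2 scale (standard error 0.099, 95% interval 0.32 to 0.74), a CPM ratio of 1.44, with an adjusted p of 3.61e-04 in limma with Benjamini-Hochberg adjustment over all genes. Its lowest SAM dish (5.02) lay 0.44 above its highest adenine dish (4.57). The share of all genes whose SAM and adenine dishes separate is not given here, so that nothing is read from this gap. At FDR 0.01, 20.8% of all genes were higher with SAM than with adenine and 22.0% were lower, or 42.7% in either direction. Over the 14 alternative analyses the difference of Prss35 stayed between 0.49 and 0.59, with adjusted p-values in limma from 1.04e-06 to 0.00267.

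Spon2 moved the other way. It was lower with SAM than with adenine by 0.28 on the log2 scale (log2 difference -0.28, standard error 0.076, 95% interval -0.44 to -0.12, adjusted p = 0.00576 in limma with Benjamini-Hochberg adjustment), and the highest SAM dish lay below the lowest adenine dish by 0.093. This call was close to the threshold, and limma no longer made it without adenine replicate 1 (-0.24, adjusted p = 0.0314), adenine replicate 3 (-0.28, 0.0197), SAM replicate 1 (-0.26, 0.0240) or SAM replicate 2 (-0.25, 0.0274), or with plain read totals as scaling (-0.22, 0.0244). Over the alternatives the difference of Spon2 stayed between -0.33 and -0.22, with adjusted p-values in limma from 2.88e-04 to 0.0314. The gap between the dishes of Spon2 and its p-values have the same limits as those of Prss35.

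Megf6 was not called. Its log2 difference between SAM and adenine was -0.20 (standard error 0.075, 95% interval -0.36 to -0.042, adjusted p = 0.0330 in limma with Benjamini-Hochberg adjustment), and the groups overlapped by 0.024. The interval holds differences as large as that of Spon2. Without adenine replicate 3, the dish with the low Megf6 level, limma called a difference of -0.29 (adjusted p = 0.00277), and over the alternatives the value ranged from -0.29 to -0.14 with adjusted p-values from 0.00277 to 0.161 in limma. In the 32 other genes of the shared pattern, SAM minus adenine was above 0 in 19 and below 0 in 13, with a median of 0.036 and a range from -0.88 to 1.43, so that both orders of adenine and SAM were present among them.

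**Figure D3:**
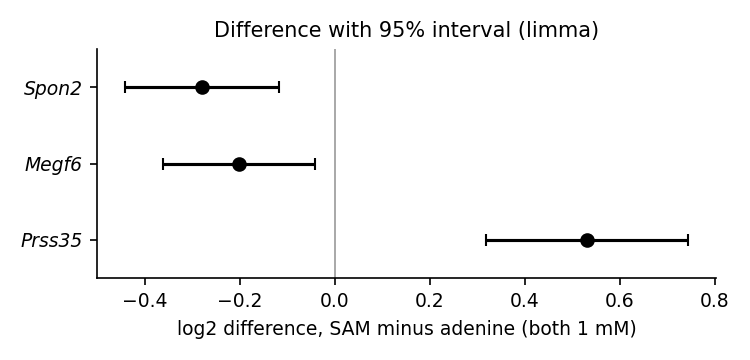
Log2 difference between the SAM and adenine dishes (SAM minus adenine, both 1 mM) with its 95% interval from limma for Spon2, Megf6 and Prss35. Prss35 lies at 0.53, to the right of 0, and Spon2 (-0.28) and Megf6 (-0.20) lie to the left.

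Ratios within a library do not depend on its scaling. The log2 ratio of Spon2 to Prss35 was 0.96 ± 0.14 in adenine and 0.15 ± 0.054 in SAM (SD, n = 3), a difference of -0.81, with no overlap between the groups (exact two-sided permutation p = 0.1, the smallest that 3 dishes against 3 allow, and 0.15 after Benjamini-Hochberg adjustment over the 3 ratios). That of Megf6 to Prss35 fell from 1.60 ± 0.21 to 0.87 ± 0.097, a difference of -0.73 with no overlap (exact permutation p = 0.1, adjusted 0.15). The ratio of Spon2 to Megf6 was -0.64 ± 0.17 in adenine and -0.72 ± 0.15 in SAM, with overlapping groups (difference -0.078, exact permutation p = 0.5, adjusted 0.5), and without adenine replicate 3 it differed by 0.018 in the opposite direction (p = 1). No exact permutation test of 3 dishes against 3 can pass a threshold of 0.05. The share of gene pairs whose ratios separate in this way is not given here, so that nothing is read from the lack of overlap. The ratios carry the same limit from the choice of the genes.

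Per length, Spon2 was the most abundant of the 3 RNAs in every group. Divided by the length of the canonical transcript, which may not be the form these cells make, the levels in CTL were 1.57 ± 0.121 RPKM (CPM per kb of transcript) for Spon2, 0.976 ± 0.0509 for Megf6 and 0.636 ± 0.097 for Prss35 (SD, n = 3). In DZ they were 4.16 ± 0.304, 2.09 ± 0.145 and 1.81 ± 0.196, where the dishes of Megf6 and Prss35 overlapped. In adenine they were 18.3 ± 0.997, 9.48 ± 1.04 and 5.81 ± 0.261, and the 3 genes stood apart. In SAM they were 15.1 ± 0.975 for Spon2, 8.21 ± 0.333 for Megf6 and 8.39 ± 0.245 for Prss35, so that Prss35 had drawn level with Megf6 within the spread of the dishes. Not divided by length, the mean log2 CPM of Megf6 was the highest of the 3 in every group.

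The levels of the 3 genes went together across the 12 libraries, with Pearson r of 0.994 for Spon2 and Megf6, 0.977 for Spon2 and Prss35 and 0.974 for Megf6 and Prss35. The libraries fall into the 4 treatment groups, and these values mostly repeat the group means, by which the genes were chosen. Taken as deviations from the group means, the values of r were -0.061, 0.26 and -0.23, so that little of this likeness was left among dishes of the same group. In CTL the SD of Spon2 (0.111) and Megf6 (0.076) was near the spread from counting alone (0.109 and 0.079). Deviations of that size could hardly show a likeness. In the treated groups the SD of each gene was above that spread. These values of r were not tested.

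Likeness to each member was measured as the root mean square difference over the 12 libraries, on the log2 scale, after each gene was centred on its CTL mean. Among all protein-coding genes, the nearest to Spon2 were Mest (0.243, r = 0.988), Megf6 (0.253), Prss35 (0.317), Lrrc15 (0.320, r = 0.976) and Crabp1 (0.372, r = 0.970). Mest is an imprinted gene expressed from the paternal copy, Lrrc15 encodes a leucine-rich repeat membrane protein of activated fibroblasts, and Crabp1 a carrier of retinoic acid inside cells. The nearest to Megf6 were Serpina3g (0.251, r = 0.986), a protease inhibitor, Spon2 (0.253), Mest (0.258, r = 0.986), Crabp1 (0.332, r = 0.974) and Lrrc15 (0.348, r = 0.975), with Prss35 in place 6 (0.414). The nearest to Prss35 were Crabp1 (0.238, r = 0.993), Lrrc15 (0.239, r = 0.990), Mest (0.253, r = 0.991), Spon2 (0.317) and Serpina3g (0.381, r = 0.996), with Megf6 again in place 6. The same 4 genes outside the members recur. The members were chosen for a shared pattern, so that a gene near to any of them tends to be near to the others, and nothing is read from this. Their differences from CTL, in the order DZ, adenine and SAM, were 1.43, 3.15 and 3.30 for Mest, 1.61, 3.03 and 3.44 for Lrrc15, 1.17, 2.94 and 3.61 for Crabp1 and 1.20, 2.84 and 3.14 for Serpina3g. All 4 had a higher mean with SAM than with adenine, as Prss35 did, by 0.16 for Mest, 0.40 for Lrrc15, 0.67 for Crabp1 and 0.29 for Serpina3g, whereas Spon2 and Megf6 had a lower mean with SAM.

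Spon1, the closest relative of Spon2, was not among the genes measured. Of 55 other genes for proteins with thrombospondin type repeats, 31 were measured, and with DZ 13 were higher, 7 lower and 11 not called, or 64.5% called against 45.9% of all genes. With adenine 18 were higher and 6 lower (77.4% called, against 61.6% of all genes), and with SAM 16 were higher and 8 lower (77.4%, against 69.3%). The median log2 difference of the list was 0.12 with DZ, 0.38 with adenine and 0.22 with SAM, beside medians of -0.0057, -0.0030 and -0.015 over all genes. The gene nearest to Spon2 in adenine was Unc5c, a receptor for netrin, which rose by 2.41 with adenine (adjusted p = 1.48e-11 in limma with Benjamini-Hochberg adjustment) and by 1.90 with SAM (1.68e-10). Thbs2, a matrix protein, rose by 2.19 with adenine and 1.11 with SAM, and Adamtsl4 by 1.61 and 2.17. Thsd4 went the other way, with log2 differences of -2.25 with adenine and -2.99 with SAM (standard error 0.11, adjusted p = 4.22e-11 and 9.67e-13 in limma). Rspo3, which strengthens Wnt signals, fell by 1.38 with SAM (adjusted p = 2.78e-07 in limma) and was lower there than with adenine (log2 difference -1.88, adjusted p = 4.42e-08 in limma). Between SAM and adenine, 6 of the 31 were higher and 12 lower (58.1% called, beside 42.7% of all genes), and Spon2 was lower with SAM as well.

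Integrins are the receptors to which Spon2 is known to bind. Of 26 subunits, 16 were measured. With DZ 3 were higher (Itga7, Itgav and Itgb7) and 5 lower (Itga2b, Itga5, Itga9, Itga10 and Itgb5), with adenine 7 higher and 5 lower (Itga3, Itga6, Itga8, Itgb2 and Itgb7), and with SAM 8 higher and 5 lower (Itga6, Itga9, Itgb1, Itgb2 and Itgb7). The shares called were 50%, 75.0% and 81.3%, beside 45.9%, 61.6% and 69.3% of all genes, so that the share with DZ was near that of all genes. The median log2 differences were -0.12, 0.15 and 0.23. Itgb3, which pairs with the alpha subunits Itgav and Itga2b, rose by 1.09 with adenine and 1.65 with SAM (standard error 0.083, Benjamini-Hochberg adjusted p = 1.16e-08 and 5.22e-11 in limma), and its DZ difference of -0.24 was not called (adjusted p = 0.0208 in limma). Itga11, a collagen receptor subunit, rose by 1.46 and 1.22 and stood at -0.038 with DZ, not called. Itga6, a laminin receptor subunit, fell by 1.25 with adenine and by 1.03 with SAM. Itgb7 and Itgb2, subunits best known from leukocytes, were among the scarce genes, and Itgb7 rose by 1.47 with DZ but fell by 0.79 with adenine and by 0.91 with SAM. Itgb2 fell by 1.18 with adenine and by 1.03 with SAM. Those of the subunits listed here without values were named after their values had been seen.

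Of 59 other genes for proteins with EGF-like repeats, 35 were measured, and with DZ 17 were higher and 5 lower (Ltbp4, Notch1, Notch2, Notch3 and Matn2), with adenine 27 higher and 3 lower (Fbln5, Ltbp4 and Creld1), and with SAM 22 higher and 9 lower. The shares called were 62.9%, 85.7% and 88.6%, against 45.9%, 61.6% and 69.3% of all genes, and the median log2 differences were 0.14, 0.43 and 0.39. Those named for being lower were named after their values had been seen. Megf9, a relative by name, rose by 0.45 with adenine (adjusted p = 2.56e-05 in limma with Benjamini-Hochberg adjustment) and was not called with DZ (-0.10). Megf10 and Megf11 were not among the genes measured.

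Fbln1, a matrix protein that binds fibronectin and elastin fibres, came closest to Megf6 in both treatments, with rises of 2.22 with adenine and 2.24 with SAM, and of 0.53 with DZ (standard error 0.057, Benjamini-Hochberg adjusted p = 6.48e-14, 1.96e-14 and 1.52e-06 in limma). Dlk1, a Notch ligand relative and an imprinted gene expressed from the paternal copy, rose by 1.58 with adenine and 1.45 with SAM, and Fbn2, a component of microfibrils, by 1.47 and 0.73. Svep1 rose by 1.31 with adenine and was at 0.071 with SAM, not called, and Slit2, a guidance cue for axons, fell by 1.30 with SAM and was at -0.060 with adenine, not called. Both differed between SAM and adenine, with log2 differences of -1.24 (adjusted p = 6.72e-11 for Svep1 and 2.32e-11 for Slit2 in limma). Among the 35, 7 were higher and 15 lower with SAM than with adenine (62.9% called, beside 42.7% of all genes), where Megf6 was not called.

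The relatives of Prss35 were few. Of 51 other genes for trypsin-like serine proteases and related proteins, 12 were measured, and many of the others are known as genes of liver or epithelia. With DZ 8 were higher (Prss23, Prss36, Htra1, Htra2, C1s1, C1ra, C1rl and Masp1) and 2 lower (Plau and Plat), or 83.3% called beside 45.9% of all genes, with a median log2 difference of 0.51. With adenine 4 were higher (Prss23, Plat, C1s1 and C1rl) and 2 lower (Htra2 and Masp1), or 50% called beside 61.6% of all genes, with a median of 0.14. With SAM 3 were higher (Plat, C1s1 and C1rl) and 2 lower (Htra1 and Masp1), or 41.7% called beside 69.3% of all genes, with a median of 0.094. The list had its highest median with DZ. Prss35 was chosen for a rise that was smallest with DZ, so that nothing is read from its order beside that of the list. With plain read totals as scaling, 8 of the 12 were higher with SAM instead of 3. The genes named without values were named after their values had been seen.

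Prss23, the closest relative of Prss35, was far more abundant and followed another order. Its mean was 7.67 log2 CPM in CTL, 8.25 in DZ, 8.29 in adenine and 7.74 in SAM, so that it rose by 0.59 with DZ and by 0.62 with adenine (standard error 0.028, Benjamini-Hochberg adjusted p = 2.62e-10 and 1.71e-11 in limma) and was at 0.075 with SAM, not called at FDR 0.01 (adjusted p = 0.0224 in limma). Prss23 was lower with SAM than with adenine (log2 difference -0.54, adjusted p = 4.03e-10 in limma), whereas Prss35 was higher. Of the complement proteases, C1ra rose by 0.79 and Masp1 by 0.54 with DZ, but C1ra was at 0.045 with adenine and 0.11 with SAM, not called, and Masp1 fell by 0.72 with adenine and by 0.71 with SAM. Plat, the tissue plasminogen activator, fell by 0.53 with DZ and rose by 1.04 with adenine and 0.58 with SAM. Prss36 rose by 0.86 with DZ and was at 0.26 in both other treatments, not called, and C1rl rose by 0.31, 0.49 and 0.73 with DZ, adenine and SAM.

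**Figure D4:**
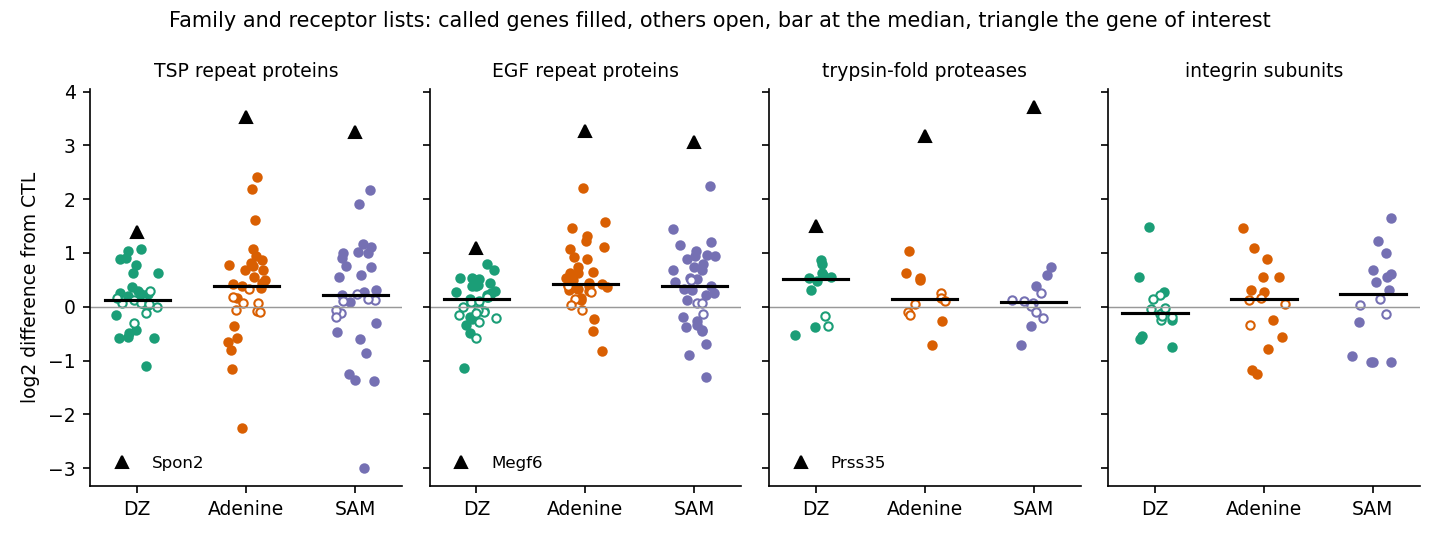
Log2 difference from CTL with DZ, adenine and SAM for the measured genes of the thrombospondin repeat, EGF repeat and trypsin-like protease families and for integrin subunits. Filled points were called at FDR 0.01 in limma, open points were not, bars are medians of the lists (0.12 to 0.51 with DZ in the 3 families) and triangles are Spon2, Megf6 and Prss35, which were chosen for their rises.

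The nearest measured protein-coding genes, a pair on each side of each member, are given here beside it. Of these 12 neighbours, limma called 5 with DZ, all of them higher (Ctbp1, Maea, Tprg1l, Pgm3 and Cep162), where it called 45.9% of all genes in either direction. It called 3 of the 12 without CTL replicate 1, CTL replicate 3, DZ replicate 2 or DZ replicate 3. With adenine it called 5 higher and 4 lower, beside 61.6% of all genes in either direction, and with SAM 5 higher and 6 lower, beside 69.3%. The largest difference among them was -1.30 for Prdm16 with SAM. Beside Spon2, Ctbp1 lies 23.0 kb away and differed from CTL by 0.14 with adenine and 0.050 with SAM, and Maea, 115 kb away, by -0.23 and -0.18. On the other side, Ywhah at 168 kb rose by 0.36 with adenine and 0.69 with SAM, and Depdc5 at 202 kb rose by 0.50 with SAM. Beside Megf6, Wrap73 lies only 2.45 kb away on the same strand and differed from CTL by 0.045 with adenine, not called, and 0.30 with SAM (adjusted p = 6.38e-04 in limma with Benjamini-Hochberg adjustment). Tprg1l, at 10.0 kb, fell by 0.26 with adenine and by 0.48 with SAM, and Prdm16, at 39.9 kb on the other side, fell by 0.67 and 1.30. Beside Prss35, Me1 at 38.9 kb rose by 0.30 with SAM, and Pgm3 at 162 kb rose by 0.62, 0.63 and 0.91 with DZ, adenine and SAM. Cyb5r4, at 263 kb, fell by 0.27 with adenine and by 0.37 with SAM, and the remaining neighbours, Tnfrsf14 at 644 kb from Megf6 and Cep162 at 431 kb from Prss35, lay between -0.60 and 0.28 in all 3 comparisons.

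**Figure D5:**
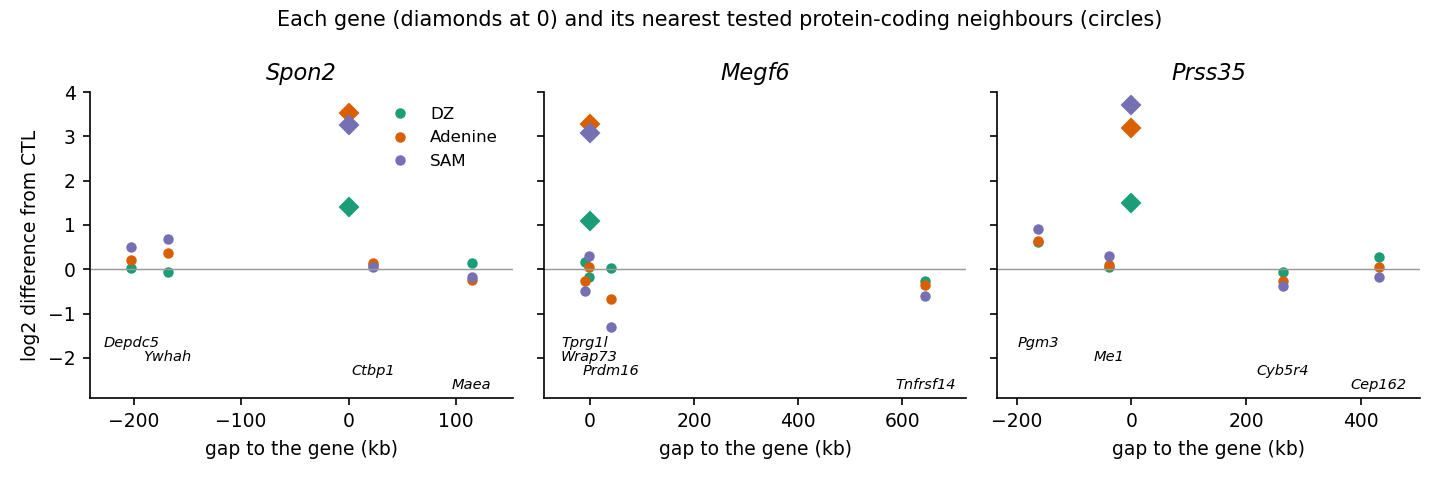
Log2 difference from CTL with DZ, adenine and SAM for each member (diamonds at 0) and the nearest measured protein-coding genes on either side (circles), against the gap in kb between the neighbour and the member. The neighbours lie between -1.30 and 0.91. The diamonds lie above them, as the choice of the members for their rises favours.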

How the data were processed

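RNA was sequenced in 12 libraries of mouse embryonic fibroblasts, 3 in each of 4 groups. The libraries were stranded, but whether counting used the strand is not given in the sources used here. The authors trimmed reads with Trimmomatic, aligned them to GRCm39 with HISAT2 guided by GENCODE vM27, assembled and quantified with StringTie, dropped genes under 1 CPM in any sample and normalized the rest with edgeR (versions not given in the sources used here). The deposited values of 12591 genes are log2 CPM on the authors' normalized library sizes, and were used unchanged. With a prior count of 2 taken off, 100% of the values were whole reads within 0.1 (largest distance 0.0023), and the lowest count of any gene was 46. These reads are estimates that StringTie made from coverage.

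Genes were tested with limma 3.58.1 in R 4.3.3 (lmFit, contrasts, eBayes with a variance trend, all 12 libraries in 1 model), with Benjamini-Hochberg adjustment across the whole table, and called at FDR 0.01. The fit was also run on simulated data, but the outcome is not reported here and nothing is read from it. Ratios were tested with scipy 1.17.1. The members and lists were chosen with earlier results of these data known. The genes named are the members, their relatives, the 5 called genes of each list with the largest difference, the 2 nearest measured protein-coding genes on each side of a member, and the 5 most like genes per member. Among the relatives, a gene is left out of the text. Symbols and positions come from GENCODE vM39, in which 12575 identifiers were found.

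Alternatives were no variance trend, a mean of at least 3 log2 CPM, a pseudocount of 1 CPM, median centring, only the groups compared, a replicate block and leaving out each library. Voom on the recovered reads and scaling by plain read totals were added after seeing the data. Voom called 5608 genes with DZ, 7742 with adenine, 8755 with SAM and 5580 between SAM and adenine. The main fit did not treat replicate numbers as pairs. Dishes with the same number deviated from their group means with r between -0.142 and 0.181. Dishes with different numbers were not compared in this way, so these values cannot show that pairing was absent.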

Additional observations from a re-analysis of the deposited data

How the results depend on the processing

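Of the values that answer a comparison, 444 results of alternatives stayed the same, 18 moved, 5 lost a call, 1 gained a call and 1 reversed. Among these, the differences of the members from CTL had no test, and they and the counts of called genes were scored by size, without a call. Of the results of single named genes, 1280 kept their call and 96 lost it. With a pseudocount of 1 CPM the differences from CTL were smaller, at 1.20, 3.23 and 2.96 for Spon2 with DZ, adenine and SAM, 3.10 and 2.90 for Megf6 with adenine and SAM, and 1.21, 2.76 and 3.27 for Prss35, since an added constant shrinks the differences of scarce genes. With plain read totals as scaling, chosen after seeing the data, Spon2 was 3.37 and Megf6 3.19 above CTL with SAM, SAM minus adenine was -0.22 for Spon2, no longer called, and 10 trypsin-like proteases were called with SAM instead of 5. Restricted to genes whose mean reached 3 log2 CPM, which tests fewer genes, 4 integrin subunits were called with DZ instead of 8 and 8 with SAM instead of 13, and with no variance trend 3 neighbours were called with DZ instead of 5.

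Leaving out 1 library gave SAM minus adenine between -0.33 and -0.24 for Spon2 and between -0.29 and -0.14 for Megf6, a difference in the ratio of Spon2 to Megf6 between -0.16 and 0.018 (reversed without adenine replicate 3, at 0.018), and 3 to 4 neighbours called with DZ. The cause of these changes was not tested. With a replicate block, SAM minus adenine had adjusted p-values in limma of 0.00747 for Spon2, 0.0349 for Megf6 and 4.10e-04 for Prss35, and the block removed the calls of Cep162 with SAM and Unc5c with DZ among the genes named. Depth limits the CTL levels most, where 104 to 185 reads of Prss35 and Spon2 were counted per dish.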
